A study of Mus musculus with 12 samples.

Results

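Cell cycle and DNA replication genes were followed in cultures of mouse cortical neurons, cells that have left the cell cycle, in which long-repeat huntingtin was expressed. The 38 genes, of the 41388 counted, were chosen by symbol as well-known members of this machinery. The rule uses no measured value, but the 38 were chosen with earlier results of these data known. They were divided by role into 3 D-type cyclins, 5 genes of the G1/S switch (cyclins E and the factors E2F1 to E2F3), 11 genes of DNA replication and nucleotide supply, and 19 genes of G2 and mitosis. All 38 were found by gene identifier, and all 38 passed the filter on low counts that left 14707 genes for testing.

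Total RNA was sequenced after removal of ribosomal RNA from cortical cultures of Swiss Webster embryos of embryonic day 16, which received a lentivirus at 5 days in vitro and were harvested at 10 days in vitro. The groups were Htt-72Q (mutant huntingtin exon 1 with 72 glutamines, 4 libraries), Htt-25Q (wild-type exon 1 with 25 glutamines, 4 libraries) and a control vector (4 libraries, of which 3 are labelled as infected with an empty vector and 1 with a control vector). All 12 libraries therefore come from infected cultures, and neither an uninfected culture nor the promoter that drives the exon 1 construct is described in the labels. The description of each library starts with a number whose meaning is not stated, and which is called its preparation here. Library 1, 2, 3 and 4 of Htt-72Q carry 22, 24, 26 and 27_1. Those of Htt-25Q carry 22, 24, 27_1 and 27, and those of the control vector 22, 24, 26 and 27_1.

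A dividing cell commits itself in G1, when D-type cyclins and then cyclin E activate kinases that free E2F transcription factors from the retinoblastoma protein. E2F targets load and fire the replication machinery in S phase. A later wave of genes, driven by the MYB-MuvB complex and by FOXM1, builds the spindle and the mitotic kinases. Neurons keep most of these genes low after their last division, and re-expression of cell cycle genes in neurons has long been studied in neurodegeneration. Glia and progenitors, which such cultures can also hold, are able to divide.

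Total counts were 12.4 M to 27.5 M per library. Libraries of all groups were also split in 2 classes, at the largest gap in Gapdh level: Htt-72Q 1, 2 and 4, Htt-25Q 3 and control vector 2 and 4 had 35.4 to 50.2 CPM of Gapdh, and the other 6 libraries had 9.16 to 20.3 CPM. With the class as a term beside group, 9 of the 38 genes were called higher and 1 lower in Htt-72Q over control vector. Among all 14707 genes, 1664 were called higher and 2161 lower in that fit. Tubb3, the neuronal tubulin and a defining marker of the labelled cell type, had a mean of 872 RPKM over the 12 libraries. It was itself called lower in Htt-72Q over control vector, by 0.73 ± 0.14 in log2 (SE, edgeR quasi-likelihood test, adjusted p = 0.00179). Levels below are TMM-scaled CPM (CPM after a scaling that removes differences in library composition), fold changes are log2 ± SE from the edgeR quasi-likelihood test, and "called" means an adjusted p under 0.05 over all 14707 genes. The labels do not say whether the libraries of a group are separate animals or cultures, so p-values measure the spread between these libraries. In RNA from whole cultures, fewer cells of a type and less RNA per cell cannot be told apart.

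The 38 genes were expressed at low but measurable levels per length. Their median over the 12 libraries was 2.85 RPKM (deposited reads per kilobase of gene, scaled to depth), against 5.51 RPKM for all genes tested, and 9 of the 38 lay above the median of all genes. Pcna, the sliding clamp of the replication fork, was the highest of the 38 at 20.02 RPKM, followed by Ccnd2 at 13.1 RPKM and Ccnd1 at 11.98 RPKM. The D-type cyclins had a median of 11.98 RPKM, the replication genes 5.82 RPKM, the G1/S genes 2.72 RPKM and the mitotic genes 2.03 RPKM. The genes at the bottom were Cdc6, which loads the replicative helicase, at 0.377 RPKM and E2f2 at 0.381 RPKM, and 7 of the 38 lay under 1 RPKM. Within the mitotic genes the level per length spread from 7.67 RPKM for Top2a to 0.692 RPKM for Bub1.

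**Figure D1:**
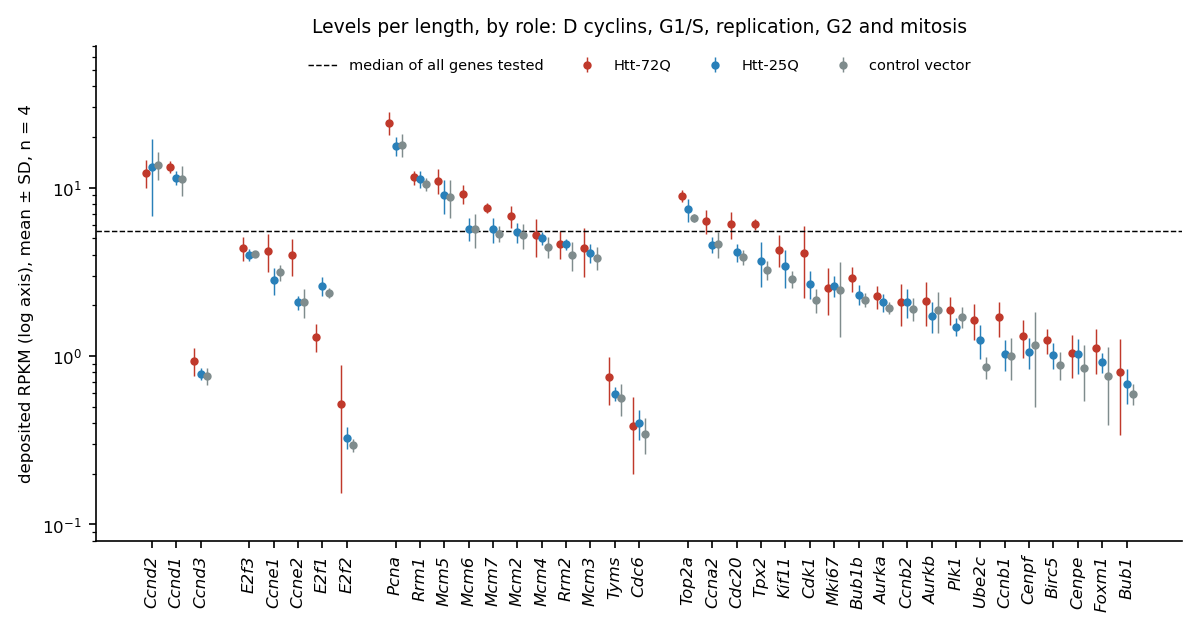
Deposited RPKM of the 38 genes on a log axis, as mean ± SD of 4 libraries for Htt-72Q (red), Htt-25Q (blue) and control vector (grey), ordered within each role by level. The dashed line is the median of all genes tested, 5.51 RPKM, and most mitotic genes lie under it in the 3 groups.

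In Htt-72Q cultures, 8 of the 38 genes rose over control vector and 1 fell. The genes that rose were Ccne2 of the G1/S switch, Mcm6 and Mcm7 of the replicative helicase, and Cdk1, Tpx2, Ube2c, Cdc20 and Top2a of mitosis, with log2 fold changes of 0.35 to 0.86. The gene that fell was E2f1, by 0.95 on the log2 scale. The called share was 21.1% higher and 2.63% lower among the 38, where 9.44% of all genes tested were called higher and 13.7% lower. The other 29 genes were not called, but 35 of the 38 had a log2 fold change above 0, against 52.4% of all genes, and the median of the 38 was 0.31, against 0.03 for all genes. The libraries of the groups did not overlap for 7 of the 8 genes that rose, Cdk1 being the exception, and for E2f1 (over all genes, 10.1% were higher and 13.6% lower without overlap). With only the 2 groups in the fit, Cdk1, Ube2c, Cdc20, Mcm7 and Top2a were not called (edgeR adjusted p 0.0530 to 0.0802), and with no filter on low counts Ube2c, Cdc20, Mcm7 and Top2a were not (edgeR adjusted p 0.0628 to 0.161).

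The 38 genes together made up 0.0706 to 0.0801% of the counts in Htt-72Q libraries, 0.0615 to 0.0660% in Htt-25Q libraries and 0.0551 to 0.0671% in control vector libraries. In scaled levels their sum was 699.8 to 766 CPM with Htt-72Q, 611 to 677 CPM with Htt-25Q and 574 to 689 CPM with the control vector, so the 4 Htt-72Q libraries lay above the other 8. The sums are given without a test. By role, the summed mitotic genes lay at 251 to 298 CPM with Htt-72Q, 198 to 262 CPM with Htt-25Q and 183 to 261 CPM with the control vector, with overlap. The summed replication genes lay at 264 to 325 CPM with Htt-72Q, 216 to 267 CPM with Htt-25Q and 206 to 258 CPM with the control vector.

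**Figure D2:**
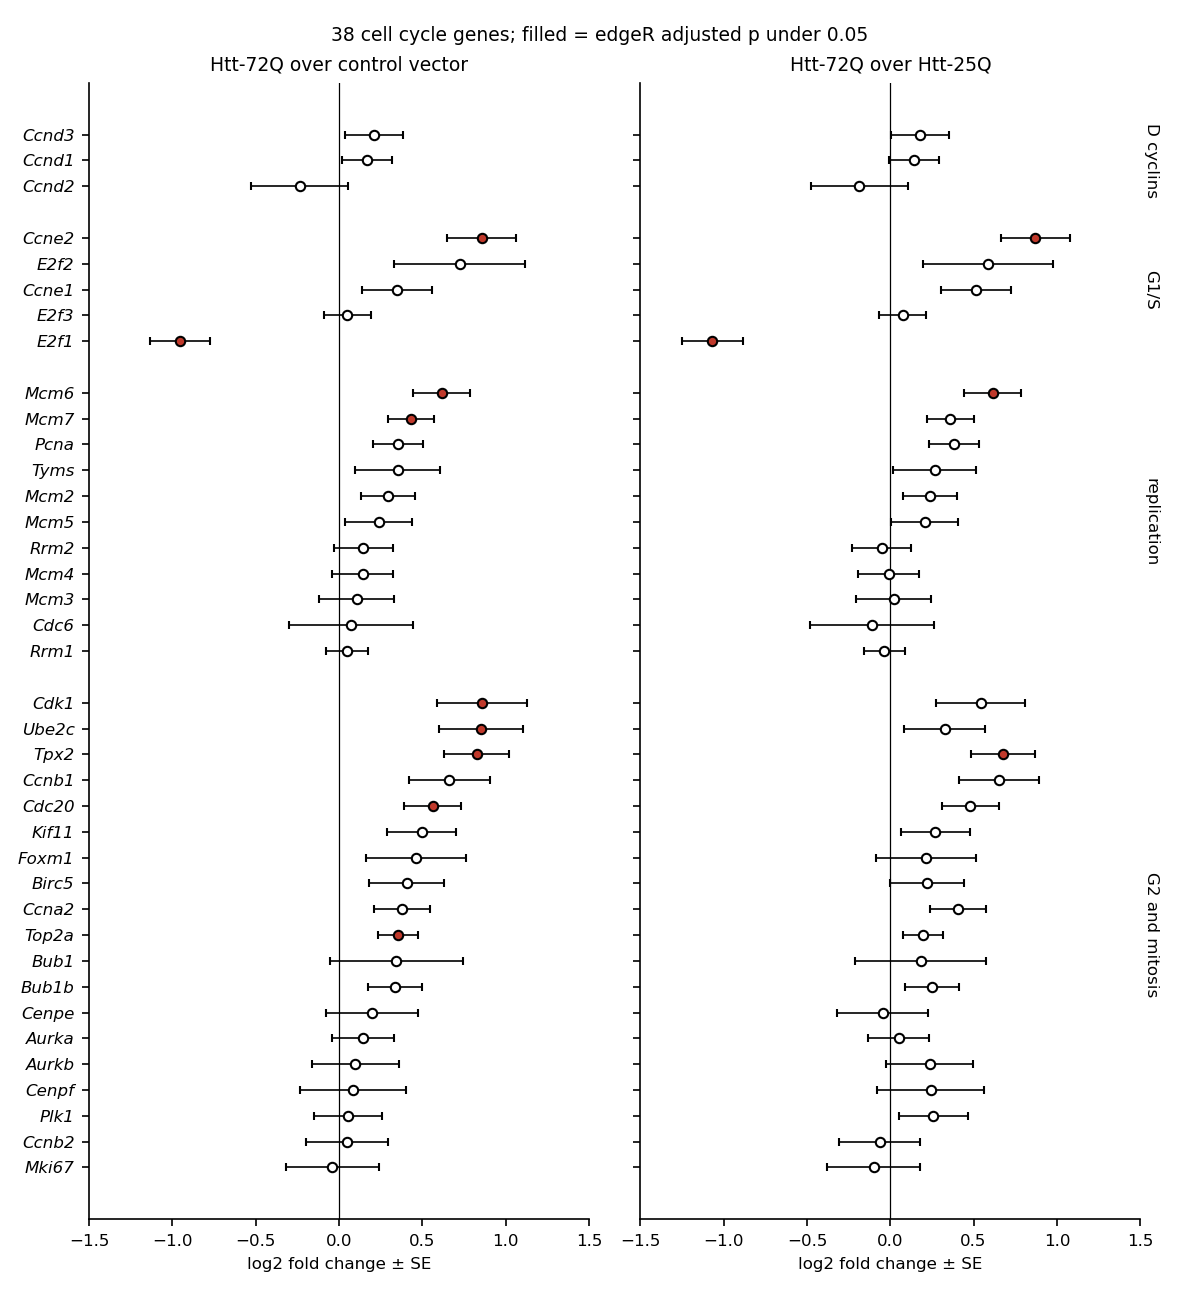
Log2 fold change ± SE (edgeR quasi-likelihood fit, 4 libraries per group) of each of the 38 genes for Htt-72Q over control vector (left) and over Htt-25Q (right), grouped by role from D cyclins to mitosis. Filled points are called: 9 on the left, with E2f1 at -0.95 as the one fall, and 4 on the right. Both panels use the same Htt-72Q libraries.

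The D-type cyclins, which link growth signals to entry into the cycle, did not pass the test in any comparison. Ccnd2 had 65.0, 70.4, 52.4 and 82.3 CPM in Htt-72Q 1 to 4, 37.2, 51.9, 116 and 103 CPM in Htt-25Q 1 to 4, and 97.4, 71.2, 64.1 and 85.8 CPM in control vector 1 to 4. Its spread was widest in Htt-25Q, where libraries 1 and 2 lay under all the others, and the groups overlapped. Ccnd3 had 9.78, 8.18, 7.01 and 6.77 CPM with Htt-72Q, 7.70, 6.56, 7.10 and 6.66 CPM with Htt-25Q, and 7.79, 6.63, 7.11 and 5.78 CPM with the control vector, again with overlap. For Htt-72Q over control vector, the log2 fold changes of Ccnd3, Ccnd1 and Ccnd2 were 0.21 ± 0.17, 0.17 ± 0.15 and -0.24 ± 0.29 (SE, lowest adjusted p = 0.414, edgeR quasi-likelihood test). Of the exonic length of Ccnd1, 21.3% is shared with LTO1 on the other strand, and it is not given whether counting used strand.

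The G1/S genes split. Ccne2 (GRCm38 chromosome 4, 11191351 to 11204779, plus strand) encodes cyclin E2, which drives CDK2 at the start of S phase. It had 10.1, 11.7, 18.5 and 13.8 CPM in Htt-72Q 1 to 4, 7.70, 8.001, 6.73 and 7.11 CPM in Htt-25Q 1 to 4, and 5.46, 7.35, 8.37 and 8.75 CPM in control vector 1 to 4. Each Htt-72Q library lay above all 8 others. The log2 fold change was 0.86 ± 0.21 over control vector (edgeR quasi-likelihood test, adjusted p = 0.00818) and 0.87 ± 0.21 over Htt-25Q (adjusted p = 0.00747), and within the 4 shared preparations it was 0.63 to 1.10 over control vector. Exons of Ints8, on the opposite strand, cover 43.9% of the exonic length of Ccne2. Ints8 was itself called higher over control vector, by 0.46 ± 0.14 (adjusted p = 0.0235), with 26.6 ± 1.06 CPM with Htt-72Q, 19.4 ± 1.99 CPM with Htt-25Q and 19.4 ± 2.48 CPM with the control vector (SD, n = 4 each), and without the strand of the reads the overlap cannot be assigned to either gene.

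E2f1 (chromosome 2, 154559407 to 154569892, minus strand), the E2F factor best known for switching on S phase genes, moved the other way. It had 3.35, 4.77, 4.46 and 3.33 CPM in Htt-72Q 1 to 4, 6.97, 9.40, 8.67 and 8.25 CPM in Htt-25Q 1 to 4, and 7.79, 8.07, 7.11 and 7.79 CPM in control vector 1 to 4. Every Htt-72Q library lay under every other library. E2f1 fell by 0.95 ± 0.18 against control vector (SE, edgeR quasi-likelihood test, adjusted p = 0.00172) and by 1.07 ± 0.18 against Htt-25Q (adjusted p = 0.000726), and the difference within the 4 preparations shared with control vector was -1.11 to -0.62.

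The other G1/S genes were not called. E2f3, the highest of this role per length at 4.15 RPKM, had 17.1, 19.2, 25.7 and 19.8 CPM with Htt-72Q, 20.6, 18.6, 17.8 and 20.8 CPM with Htt-25Q, and 20.3, 19.4, 20.4 and 18.9 CPM with the control vector, with overlapping groups and a log2 fold change of 0.05 ± 0.14 over control vector. E2f2 had 1.05, 1.77, 5.10 and 1.98 CPM with Htt-72Q, 1.90, 1.30, 1.64 and 1.65 CPM with Htt-25Q, and 1.54, 1.55, 1.51 and 1.28 CPM with the control vector. Htt-72Q 3 stood far above the rest for E2f2, while Htt-72Q 1 was the lowest of the 12, and the log2 fold change over control vector was 0.72 ± 0.39 (adjusted p = 0.209). Ccne1, the other cyclin E gene, had 7.01 CPM in Htt-72Q 3 and 11.9 to 12.3 CPM in the other Htt-72Q libraries, against 6.23 to 9.67 CPM with Htt-25Q and 7.48 to 9.63 CPM with the control vector. Its log2 fold change was 0.35 ± 0.21 over control vector (adjusted p = 0.255) and 0.51 ± 0.21 over Htt-25Q (adjusted p = 0.0939). With preparation as a block, Ccne1 was called over Htt-25Q at 0.69 (adjusted p = 0.0365), and without Htt-72Q 3 at 0.67 (adjusted p = 0.0166).

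Among the 11 replication genes 2 (18.2%) rose over control vector, both of them among the 6 MCM helicase subunits, and the other 9 were not called. Of all genes tested, 9.44% were called higher and 13.7% lower. All 11 log2 fold changes were above 0, from 0.05 for Rrm1 to 0.62 for Mcm6, against 52.4% of all genes. The median of the 11 was 0.24, against 0.03 for all genes. Mcm6 (chromosome 1, 128331590 to 128359664, minus strand) had 47.2, 41.9, 35.4 and 41.1 CPM in Htt-72Q 1 to 4, 32.7, 23.4, 27.5 and 24.5 CPM in Htt-25Q 1 to 4, and 35.2, 23.1, 21.5 and 28.3 CPM in control vector 1 to 4. The lowest Htt-72Q library, 3, lay just above the highest control library, 1. On the log2 scale the difference was 0.62 ± 0.17 over control vector (edgeR quasi-likelihood test, adjusted p = 0.0175) and 0.61 ± 0.17 over Htt-25Q (adjusted p = 0.0186). The call over control vector was lost without Htt-72Q 1 or 2 or control vector 2 or 3 (adjusted p 0.0525 to 0.0728), and that over Htt-25Q without Htt-72Q 1 or Htt-25Q 2 or 4 (adjusted p 0.0596 to 0.0685).

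Mcm7 (chromosome 5, 138164583 to 138172422, minus strand), another subunit of the same helicase ring, had 33.9, 30.7, 35.7 and 30.2 CPM in Htt-72Q 1 to 4, 31.1, 23.7, 24.7 and 22.0 CPM in Htt-25Q 1 to 4, and 26.0, 25.6, 20.8 and 24.2 CPM in control vector 1 to 4. The Htt-72Q libraries lay above all control libraries but overlapped with Htt-25Q 1. The log2 fold change was 0.43 ± 0.14 over control vector (edgeR quasi-likelihood test, adjusted p = 0.0377) and 0.36 ± 0.14 over Htt-25Q (adjusted p = 0.0803). The call was lost without any 1 of Htt-72Q 1, 2 or 3, Htt-25Q 2, 3 or 4 and control vector 2, 3 or 4 (adjusted p 0.0509 to 0.123). Ap4m1, on the opposite strand, shares 23.9% of the exonic length of Mcm7 and had a log2 fold change of -0.09 ± 0.14, and the microRNA genes Mir25 and Mir93 lie within Mcm7.

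The remaining helicase subunits had log2 fold changes over control vector of 0.10 ± 0.22 (Mcm3), 0.14 ± 0.19 (Mcm4), 0.24 ± 0.20 (Mcm5) and 0.29 ± 0.16 (Mcm2), with adjusted p from 0.222 to 0.778. Pcna had 64.6, 57.5, 58.9 and 44.3 CPM in Htt-72Q 1 to 4, 44.5, 39.6, 50.7 and 37.8 CPM with Htt-25Q, and 42.4, 44.0, 37.4 and 52.7 CPM with the control vector. Htt-72Q 1, 2 and 3 lay above the 8 libraries of the other groups and Htt-72Q 4 did not. On the log2 scale the difference was 0.35 ± 0.15 over control vector (adjusted p = 0.107), and without Htt-72Q 4 Pcna was called at 0.46 (adjusted p = 0.0410). Cdc6 had 2.43, 2.39, 0.557 and 2.37 CPM with Htt-72Q, 2.42, 1.81, 1.68 and 2.56 CPM with Htt-25Q, and 2.16, 1.31, 2.32 and 1.61 CPM with the control vector. The low Htt-72Q library rests on 7 counts. The enzymes of nucleotide supply, Tyms (thymidylate synthase), Rrm2 and Rrm1 (ribonucleotide reductase), had log2 fold changes over control vector of 0.35 ± 0.25, 0.14 ± 0.18 and 0.05 ± 0.13 and were not called.

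**Figure D3:**
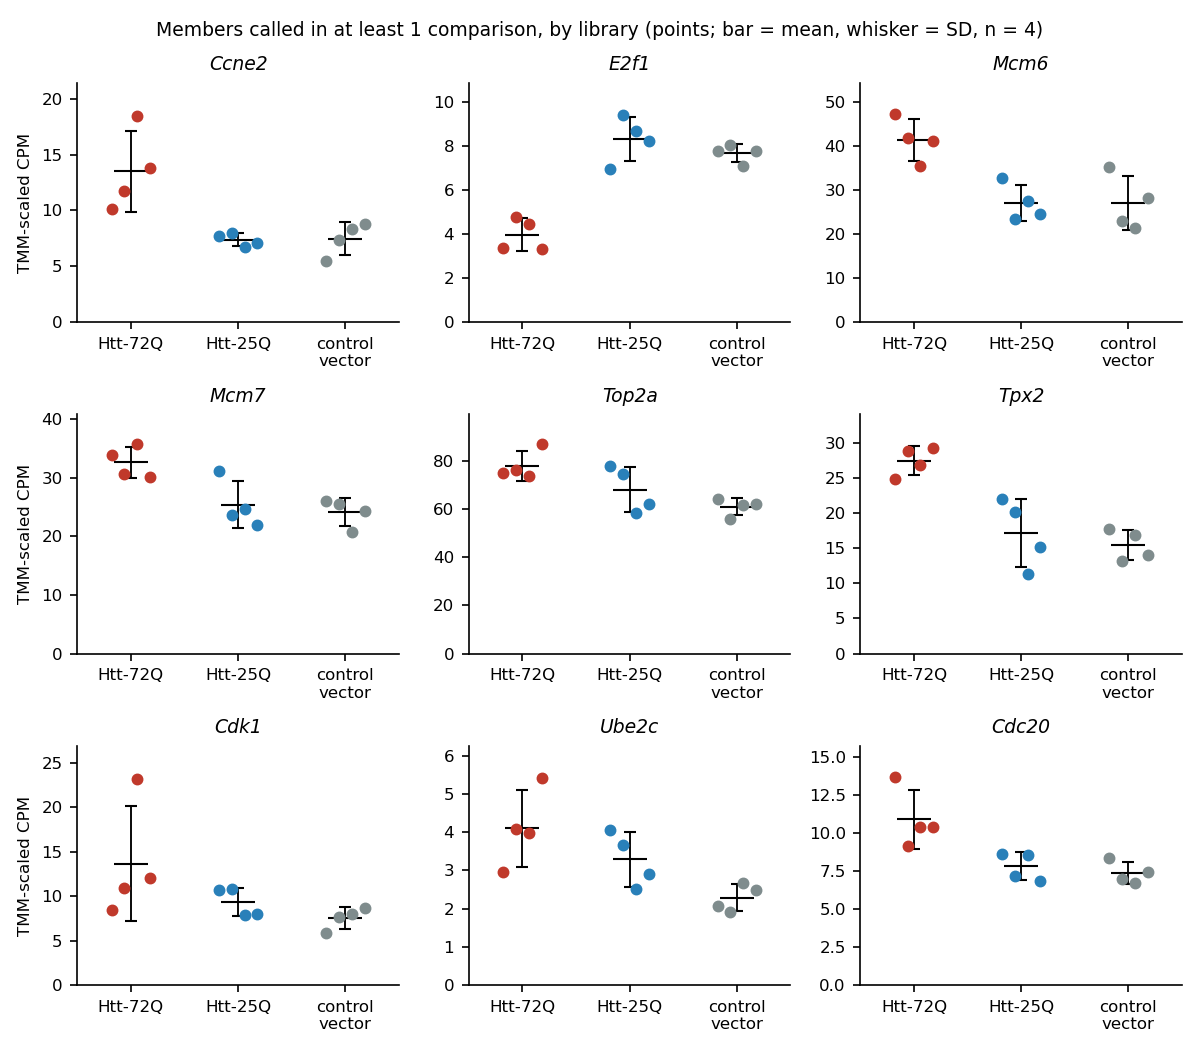
TMM-scaled CPM in each library (points) with mean and SD (n = 4) for the 9 genes called in at least 1 comparison, with Htt-72Q left, Htt-25Q in the middle and control vector right. The points of Htt-72Q lie apart from both other groups for Ccne2, E2f1, Mcm6, Tpx2 and Cdc20, and the high point of Cdk1 is Htt-72Q 3.

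Of the 19 genes of G2 and mitosis, 5 (26.3%) rose over control vector, none fell and 14 were not called. Among all genes tested, 9.44% were called higher and 13.7% lower. Of the 19, 18 had a log2 fold change above 0, against 52.4% of all genes. The median of the 19 was 0.35, against 0.03 for all genes. Tpx2 (chromosome 2, 152847964 to 152895321, plus strand), a spindle assembly factor that activates Aurora A, had 24.9, 28.9, 26.8 and 29.3 CPM in Htt-72Q 1 to 4, 22.1, 20.2, 11.4 and 15.2 CPM in Htt-25Q 1 to 4, and 17.7, 13.1, 16.9 and 14.1 CPM in control vector 1 to 4. Each Htt-72Q library lay above the other 8. The log2 fold change was 0.83 ± 0.19 over control vector (edgeR quasi-likelihood test, adjusted p = 0.00653) and 0.67 ± 0.19 over Htt-25Q (adjusted p = 0.0213). The second call was lost without Htt-72Q 2 or Htt-25Q 3 or 4 (adjusted p 0.0544 to 0.0738).

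Cdk1 (chromosome 10, 69336635 to 69352938, minus strand), the kinase that drives entry into mitosis, had 8.46, 10.98, 23.2 and 12.1 CPM in Htt-72Q 1 to 4, 10.7, 10.8, 7.92 and 8.02 CPM in Htt-25Q 1 to 4, and 5.85, 7.65, 8.02 and 8.67 CPM in control vector 1 to 4. Htt-72Q 3 stood far above the other 11 libraries, and Htt-72Q 1 lay within the control range. The log2 fold change over control vector was 0.86 ± 0.27 (adjusted p = 0.0332, edgeR quasi-likelihood test), and 0.48 without Htt-72Q 3 (adjusted p = 0.107). The call was also lost without control vector 1, 2 or 3 (adjusted p 0.0573 to 0.0827) and with limma voom (adjusted p = 0.0537).

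Ube2c (chromosome 2, 164769898 to 164778822, plus strand) and Cdc20 (chromosome 4, 118432901 to 118437352, minus strand) serve the anaphase-promoting complex, the ubiquitin ligase that ends mitosis, as its E2 enzyme and its activator. Ube2c had 2.95, 4.09, 3.98 and 5.41 CPM in Htt-72Q 1 to 4, 4.07, 3.67, 2.505 and 2.90 CPM in Htt-25Q 1 to 4, and 2.07, 1.91, 2.67 and 2.49 CPM in control vector 1 to 4. All Htt-72Q libraries lay above all control libraries, and they overlapped with Htt-25Q. On the log2 scale the difference was 0.85 ± 0.25 over control vector (edgeR quasi-likelihood test, adjusted p = 0.0233) and 0.33 ± 0.24 over Htt-25Q (adjusted p = 0.373), and the call was lost without Htt-72Q 2 or 4 or control vector 1 or 2 (adjusted p 0.0533 to 0.0799). Exons of Tnnc2 on the opposite strand cover 30.3% of the exonic length of Ube2c. Cdc20 had 13.7, 9.14, 10.4 and 10.4 CPM in Htt-72Q 1 to 4, 8.65, 7.16, 8.56 and 6.88 CPM in Htt-25Q 1 to 4, and 8.40, 6.99, 6.70 and 7.46 CPM in control vector 1 to 4. The Htt-72Q libraries lay above all 8 others. The log2 fold change was 0.56 ± 0.17 over control vector (adjusted p = 0.0292) and 0.48 ± 0.17 over Htt-25Q (adjusted p = 0.0577), and the first was not called without Htt-72Q 1 or control vector 2, 3 or 4 (adjusted p 0.0553 to 0.112).

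Top2a (chromosome 11, 98992943 to 99024189, minus strand), the topoisomerase that untangles chromosomes before they part, had 75.0, 76.1, 73.4 and 86.9 CPM in Htt-72Q 1 to 4, 77.7, 74.3, 58.1 and 61.8 CPM in Htt-25Q 1 to 4, and 64.2, 55.7, 61.7 and 62.1 CPM in control vector 1 to 4. The Htt-72Q libraries lay above the control libraries, while Htt-25Q 1 and 2 reached the Htt-72Q levels. On the log2 scale the difference was 0.35 ± 0.12 over control vector (edgeR quasi-likelihood test, adjusted p = 0.0457) and 0.20 ± 0.12 over Htt-25Q (adjusted p = 0.270). The call was lost without any 1 of Htt-72Q 1 to 4, Htt-25Q 2 or 4 and control vector 2, 3 or 4 (adjusted p 0.0516 to 0.158).

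The cyclins and kinases around Cdk1 did not pass the test. Ccnb1, cyclin B1 and partner of CDK1, had 9.19, 6.27, 6.45 and 5.75 CPM with Htt-72Q, 4.98, 5.12, 4.22 and 3.24 CPM with Htt-25Q, and 5.76, 4.90, 3.48 and 3.21 CPM with the control vector. Its lowest Htt-72Q library, 4, lay just under the highest control library, 1, and above all Htt-25Q libraries. The log2 fold change was 0.66 ± 0.24 over control vector (adjusted p = 0.0620) and 0.65 ± 0.24 over Htt-25Q (adjusted p = 0.0662). With preparation as a block, Ccnb1 was called over control vector at 0.68 (adjusted p = 0.0172), and without control vector 1 at 0.83 (adjusted p = 0.0291). Ccna2 (cyclin A2) had a log2 fold change of 0.38 ± 0.17 over control vector, and Ccnb2, Plk1, Aurka and Aurkb lay between 0.05 and 0.14 (adjusted p 0.622 to 0.908). A pseudogene copy, Ccnb2-ps, held 1385 counts over the 12 libraries, against 711 for Ccnb2, so the level of Ccnb2 is uncertain.

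Mki67, the gene of the proliferation marker Ki-67, did not move with the called genes. It had 30.1, 22.4, 15.1 and 31.4 CPM in Htt-72Q 1 to 4, 31.9, 24.9, 25.3 and 24.2 CPM in Htt-25Q 1 to 4, and 43.7, 18.2, 20.8 and 19.2 CPM in control vector 1 to 4. Control vector 1 was the highest of the 12 and Htt-72Q 3 the lowest, and the log2 fold change over control vector was -0.04 ± 0.28 (adjusted p = 0.933). Without control vector 1 it was 0.35 (adjusted p = 0.273). The kinetochore and checkpoint genes Cenpf, Cenpe, Bub1 and Bub1b lay between 0.08 and 0.34 and were not called. Bub1, the lowest mitotic gene per length, had 4.002, 3.41, 0.717 and 5.27 CPM with Htt-72Q, 3.72, 3.40, 2.39 and 2.45 CPM with Htt-25Q, and 3.04, 2.15, 2.97 and 2.49 CPM with the control vector, with Htt-72Q 3 the lowest and Htt-72Q 4 the highest. Kif11, the motor that separates the spindle poles, Foxm1, a driver of mitotic genes, and Birc5 (survivin) had log2 fold changes of 0.50 ± 0.21, 0.46 ± 0.30 and 0.41 ± 0.23 over control vector. Foxm1 was called without control vector 1, at 0.88 (adjusted p = 0.0244).

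Single libraries moved with many of the 38 genes. Control vector 1 was the highest control library for 19 of the 38, among them 13 of the 19 mitotic genes, and its summed fibroblast and mural markers were the highest of the 12 libraries at 86.9 CPM. Htt-72Q 3 was the lowest Htt-72Q library for 16 of the 38 and the highest for 9, so it held both the top Ccne2, E2f2 and Cdk1 values and the bottom Ccne1, Cdc6, Bub1 and Mki67 values. The part of these libraries in the counts was measured by leaving each out: without control vector 1, 8 genes of the 38 were called higher over control vector, and without Htt-72Q 3, 5 were, against 8 with all libraries. The set of genes changed without control vector 1: Cdk1 and Ube2c were no longer called, and Ccnb1 and Foxm1 were. The count called higher was 4 without Htt-72Q 1 or Htt-72Q 2, 3 without control vector 3, 5 without control vector 4 and lowest, at 2, without control vector 2. Of all genes, 1389 of 14707 were called higher with all libraries. Without Htt-72Q 1, 2 or 3 they were 1235 of 14989, 988 of 14998 and 1228 of 15065. Without control vector 1, 2, 3 or 4 they were 1268 of 14852, 918 of 15105, 1188 of 14889 and 1248 of 15084.

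Htt-72Q against Htt-25Q compares the long with the short repeat in the same exon 1. Ccne2, Mcm6 and Tpx2 rose and E2f1 fell, which is 3 higher and 1 lower of 38, or 7.89% and 2.63%, where 9.06% of all genes tested were called higher and 13.4% lower. The share called higher among the 38 was thus below that of all genes. The median log2 fold change of the 38 was 0.23, against 0.03 for all genes, and 29 of the 38 lay above 0. The libraries did not overlap for 5 genes that were higher, Ccne2, Mcm6, Tpx2, Cdc20 and Ccnb1, and for E2f1, which was lower (11.6% and 15.1% of all genes). With library totals in place of TMM scaling the count was 7 higher and 1 lower, a setting that moved the median of all genes to 0.10, and with DESeq2 it was 6 higher. It was 1 higher without Htt-25Q 4 and 5 higher without control vector 1. Among all genes, 1738 of 14707 were called higher with library totals and 1685 of 14699 with DESeq2. Without Htt-25Q 4 they were 771 of 15102, and without control vector 1 they were 1673 of 14852. Both comparisons share the Htt-72Q libraries, so their values are not independent.

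In Htt-25Q against control vector, the short repeat against the vector alone, none of the 38 genes was called with the edgeR quasi-likelihood test, and 0 of the 14707 genes were called (percent called 0). At an unadjusted p under 0.05 there were 0 of the 38 and 129 of all genes (0.877%), and DESeq2 and limma voom also called 0. The log2 fold changes of the 38 ran from -0.20 for Plk1 to 0.53 for Ube2c, with a median of 0.09, against -0.0017 for all genes. Of the 38, 29 lay above 0, against 49.5% of all genes, as many as in Htt-72Q over Htt-25Q. For Ube2c the means were 3.29 ± 0.712 CPM with Htt-25Q and 2.28 ± 0.355 CPM with the control vector (SD, n = 4 each), and the groups overlapped.

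Other genes of the same machinery were counted in wider lists. Of 40 other replication genes, 7 (17.5%) rose over control vector and none fell, beside 9.44% of all genes tested called higher. They were led by Cdc45, which completes the active helicase, at 1.08 ± 0.21 (adjusted p = 0.00188, edgeR quasi-likelihood test) and the clamp loader subunit Rfc3 at 0.74 ± 0.17 (adjusted p = 0.00482). Cdc45 had 19.8 ± 5.96 CPM with Htt-72Q, 8.07 ± 0.412 CPM with Htt-25Q and 9.35 ± 1.62 CPM with the control vector (SD, n = 4 each). Of 46 other mitotic genes, 6 (13.0%) rose, a share near that of all genes, and none fell. They were led by Cks2, a CDK-binding subunit, at 2.20 ± 0.32 (adjusted p = 0.000207) and Cdca3 at 1.33 ± 0.28 (adjusted p = 0.00303). Cks2 was at a low level, with 2.40 ± 0.762 CPM with Htt-72Q, 0.846 ± 0.0873 CPM with Htt-25Q and 0.514 ± 0.0963 CPM with the control vector (SD, n = 4 each). The median log2 fold changes were 0.23 for the replication list and 0.34 for the mitotic list. Over Htt-25Q, 4 of the 40 (10.0%) and 4 of the 46 (8.70%) rose and none fell, close to the 9.06% of all genes called higher.

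The wider G1/S list and the brakes of the cycle were mixed. Of 15 other G1/S genes 1 (6.67%) rose over control vector, Cdc25a, a phosphatase that activates CDK2, at 0.63 ± 0.18 (adjusted p = 0.0195, edgeR quasi-likelihood test), and 2 (13.3%) fell, shares near those of all genes. Mycn fell by 1.58 ± 0.15 (adjusted p = 5.96e-06), with 15.1 ± 2.54 CPM with Htt-72Q, 51.0 ± 2.27 CPM with Htt-25Q and 45.1 ± 6.22 CPM with the control vector (SD, n = 4 each), and Myc, another growth-promoting factor, fell by 0.84 ± 0.22 (adjusted p = 0.0133). Of 18 genes listed as brakes 5 rose (27.8%) and 1 fell (5.56%) over control vector, beside 9.44% and 13.7% of all genes. The 18 include Lin9, Lin37, Lin52, Lin54 and Rbbp4, subunits of MuvB, which also acts in the MYB-MuvB complex named above. The list is therefore not made of brakes alone. Cdkn2a, which encodes the CDK inhibitor p16 and the p53 regulator ARF, rose (adjusted p = 2.92e-05), with 2.46 to 7.96 CPM with Htt-72Q, 0.0930 to 0.228 CPM with Htt-25Q and 0.0598 to 0.308 CPM with the control vector. Cdkn1a, the CDK inhibitor p21, rose by 0.86 ± 0.19 (adjusted p = 0.00427), with 35.2 ± 1.55 CPM with Htt-72Q, 20.6 ± 4.18 CPM with Htt-25Q and 19.3 ± 4.70 CPM with the control vector. Over Htt-25Q, 1 of the 15 G1/S genes (6.67%) rose and 2 (13.3%) fell. Of the 18 genes listed as brakes, 3 (16.7%) rose and 0 fell, beside 9.06% and 13.4% of all genes. Of all 4 wider lists, 0 genes were called in Htt-25Q against control vector.

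Markers of the cells that share the culture stand beside these results. The 10 neuron markers summed to 5269 to 5567 CPM with Htt-72Q, 6997 to 8178 CPM with Htt-25Q and 7569 to 8763 CPM with the control vector, and 7 of the 10 fell against control vector. The 14 neural progenitor markers summed to 297 to 375 CPM with Htt-72Q, 257 to 332 CPM with Htt-25Q and 265 to 291 CPM with the control vector. The Htt-72Q sum lay above all control libraries, 0 of the 13 tested markers were called against control vector, and Eomes was under 1 CPM in all 12 libraries. Against Htt-25Q 1 of the 13 rose and 1 fell (7.69% each), beside 9.06% and 13.4% of all genes. Oligodendrocyte lineage markers summed to 612 to 716 CPM with Htt-72Q, 580 to 742 CPM with Htt-25Q and 664 to 867 CPM with the control vector, with overlap. Of these 10 markers 1 (10.0%), Mobp, fell against control vector, and 1 of the 10 fell against Htt-25Q, beside 13.7% and 13.4% of all genes. Astrocyte markers also overlapped, with 0 of the 10 called, at 2508 to 2927 CPM with Htt-72Q, 2437 to 3098 CPM with Htt-25Q and 2704 to 3203 CPM with the control vector. Markers of other cells were low: 8 of the 10 microglia markers, 6 of the 8 endothelial and 4 of the 10 fibroblast and mural markers were under 1 CPM in all 12 libraries. Microglia markers summed to 15.9 to 37.4 CPM with Htt-72Q, 17.1 to 24.2 CPM with Htt-25Q and 10.5 to 25.9 CPM with the control vector, and fibroblast and mural markers to 13.1 to 22.2 CPM with Htt-72Q, 24.7 to 38.7 CPM with Htt-25Q and 21.6 to 86.9 CPM with the control vector. Against control vector, 2 of the 5 tested fibroblast and mural markers fell and 1 rose. Fn1 (fibronectin) fell by 3.19 ± 0.50 (edgeR adjusted p = 0.000370), with 1.83 to 4.002 CPM with Htt-72Q, 13.8 to 27.3 CPM with Htt-25Q and 10.4 to 63.0 CPM with the control vector, Rgs5 fell by 2.37 ± 0.55 (edgeR adjusted p = 0.00651), and Tagln rose by 1.30 ± 0.35 (edgeR adjusted p = 0.0147). Endothelial markers summed to at most 4.54 CPM in any library, and 0 of the 2 tested endothelial and 0 of the 2 tested microglia markers were called. The part of these cell types in the called genes was not tested.

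**Figure D4:**
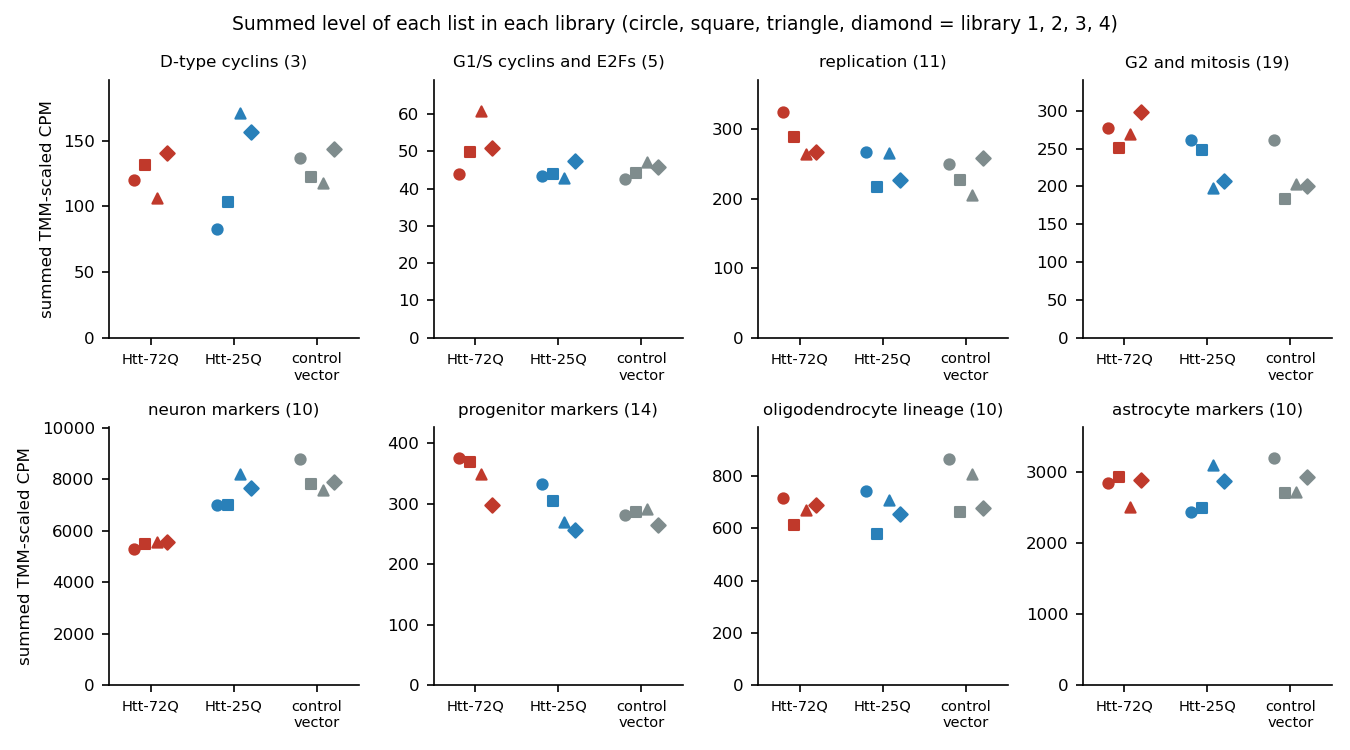
Summed TMM-scaled CPM in each library of the 4 roles of the 38 genes (top) and of 4 marker lists (bottom), with Htt-72Q left, Htt-25Q in the middle and control vector right; the marker shape gives the library number. The neuron markers of Htt-72Q lie under all other libraries, at 5269 to 5567 CPM.

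Differences were also taken within preparations. Over control vector, the direction was already fixed for E2f1 and for all genes that rose but Cdk1, because their groups did not overlap, and Cdk1 was higher in 4 of the 4 shared preparations, by 0.46 to 1.48 in log2. The smallest difference among the genes that rose was 0.22, for Top2a. Of the genes not called, 3 were also higher in all 4 preparations, Ccna2, Ccnb1 and Bub1b, and 1, Ccnd2, was lower in all 4. The share of all genes that kept their direction in all 4 preparations was not counted. Nothing is therefore read from these counts of genes not called. In the 3 preparations shared with Htt-25Q, the differences were 0.37 to 0.98 for Ccne2, 0.52 to 0.83 for Mcm6, 0.17 to 1.33 for Tpx2 and -1.26 to -0.91 for E2f1, again with directions fixed by groups that did not overlap. With preparation as a block the counts were 9 higher and 1 lower over control vector and 4 higher and 1 lower over Htt-25Q. Among all 14707 genes, that block gave 1967 higher and 2523 lower over control vector and 1153 higher and 1967 lower over Htt-25Q.

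G1/S and replication genes are known as targets of E2F factors, and mitotic genes as targets of complexes that read the CHR element and of NF-Y, so the start regions of the 38 genes were searched for these motifs. RefSeq windows of the mouse assembly GRCm38.p6, from 250 bases before to 50 bases after the start, were at hand for 30 of the 38 genes. The motifs were the E2F site (TTTCCCGC, TTTCGCGC, TTTGCCGC or TTTGGCGC), the CHR element (TTTGAA or TTTAAA) and the NF-Y box (CCAAT), searched on both strands, and matches may overlap. The 30 genes have 34 windows, and a gene with several was counted if any of them held a match. An E2F match was in 5 of 10 replication genes, 2 of 4 G1/S genes and 1 of 15 mitotic genes, against 2.61% of 27025 genes. A CHR match was in 14 of 15 mitotic, 3 of 4 G1/S and 3 of 10 replication genes, against 30.6% of all genes. An NF-Y box was in 14 of 15 mitotic, 2 of 4 G1/S and 8 of 10 replication genes, against 41.1%. The windows of 3 genes, E2f1, Cdc6 and Mcm7, lie wholly inside the gene as GENCODE draws it. That of E2f1 starts from a RefSeq start 466 bases downstream of the 5' end given above, so it does not cover the region before that end.

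The 250 bases before the start of 4 genes that rose follow, 5' to 3' on the strand of the gene, with matches in capitals. Mcm6 (chr1:128359706-128359955, minus strand) has 3 E2F matches, of which a pair overlap on opposite strands, and 2 NF-Y boxes. Cdk1 (chr10:69352913-69353162, minus strand) has the one E2F match of the mitotic genes with a window, beside 2 CHR elements and 3 NF-Y boxes. Top2a (chr11:99024190-99024439, minus strand) has 2 CHR elements and 6 NF-Y boxes, and Cdc20 (chr4:118437344-118437593, minus strand) has 1 CHR element and 2 NF-Y boxes.
Mcm6: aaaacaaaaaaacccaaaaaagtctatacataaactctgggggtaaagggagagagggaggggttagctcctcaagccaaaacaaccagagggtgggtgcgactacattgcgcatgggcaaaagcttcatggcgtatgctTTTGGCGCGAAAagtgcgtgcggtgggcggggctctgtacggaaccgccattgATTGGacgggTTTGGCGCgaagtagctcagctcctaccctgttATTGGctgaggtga
Cdk1: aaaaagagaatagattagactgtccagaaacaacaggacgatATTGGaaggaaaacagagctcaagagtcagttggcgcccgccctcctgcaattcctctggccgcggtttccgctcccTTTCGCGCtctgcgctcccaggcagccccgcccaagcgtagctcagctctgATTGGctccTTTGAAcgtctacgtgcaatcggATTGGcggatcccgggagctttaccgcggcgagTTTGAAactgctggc
Top2a: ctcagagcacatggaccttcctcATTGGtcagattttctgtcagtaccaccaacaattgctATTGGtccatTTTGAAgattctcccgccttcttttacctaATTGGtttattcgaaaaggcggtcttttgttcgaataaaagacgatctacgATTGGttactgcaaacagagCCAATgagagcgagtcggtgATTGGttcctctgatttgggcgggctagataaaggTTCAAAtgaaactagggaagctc
Cdc20: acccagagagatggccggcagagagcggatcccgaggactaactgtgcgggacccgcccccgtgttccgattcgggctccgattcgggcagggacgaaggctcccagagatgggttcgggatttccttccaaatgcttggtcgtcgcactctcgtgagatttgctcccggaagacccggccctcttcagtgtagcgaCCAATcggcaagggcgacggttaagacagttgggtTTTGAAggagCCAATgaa
The CHR element nearest to the start lies 15 bases before it in Cdk1, 23 in Top2a and 18 in Cdc20, counted to its first base. A match is a run of letters, not a measured binding site. Of the 15 mitotic genes with a window, 13 had both a CHR element and an NF-Y box, of which 4 were called and 9 were not.

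**Figure D5:**
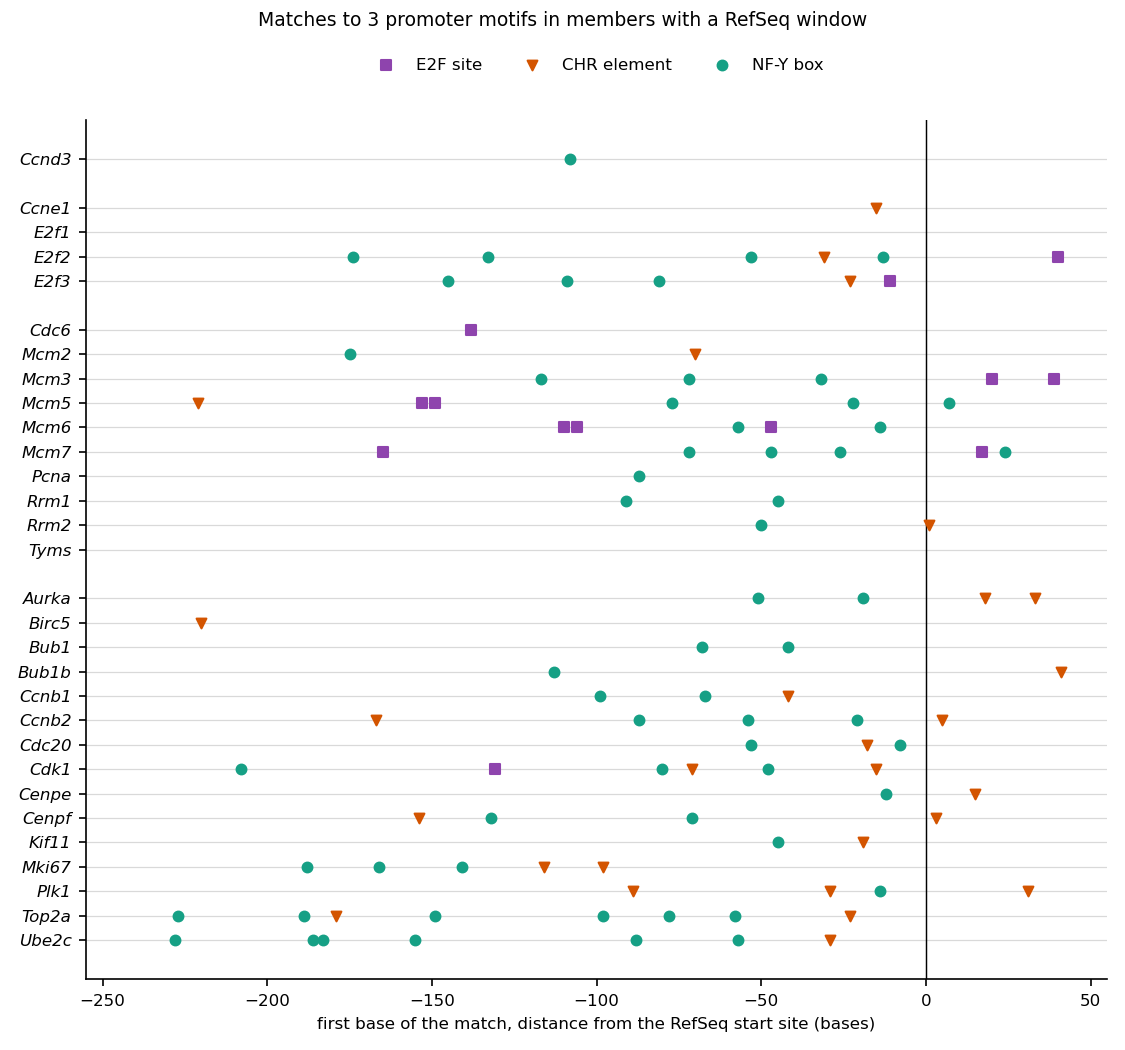
First base of each match to the E2F site (squares), the CHR element (triangles) and the NF-Y box (circles), in bases from the RefSeq start site, for the 30 genes with a window, grouped by role from D cyclins (top) to mitosis (bottom); genes with several windows have them overlaid. E2F squares stand mainly in replication rows, and CHR triangles in 14 of the 15 mitotic and 3 of the 4 G1/S rows.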

How the data were processed

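The deposited file of each of the 12 libraries holds counts of reads for 41388 genes. Beside the counts the authors deposited CPM (counts over the library total, rescaled) and RPKM (the same per kilobase of gene), which follow from the counts within 5.09e-10 and 5.09e-11. STAR 2.0.4b, featureCounts 1.45, Subread and the build GRCm38 stand in the submitters' processing notes without roles. Strandedness, multi-mapping reads and the annotation release: not given in the sources used here. Per the labels, lanes of 1 library were merged before counting.

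Counts were fitted with the edgeR 4.0.16 quasi-likelihood test in R 4.3.3 (TMM scaling, filterByExpr at a minimum count of 10, all 12 libraries in 1 fit on 3 groups, 9 residual degrees of freedom). P-values are two-sided and Benjamini-Hochberg adjusted over 14707 genes, and the procedure was tested on simulated counts. Levels are TMM-scaled CPM, and genes are compared with each other in deposited RPKM. Within-preparation differences are log2 of TMM-scaled CPM plus a pseudocount of 0.5. Gene positions come from GENCODE on GRCm38 and start regions from RefSeq on GRCm38.p6. No pair of libraries was a duplicate (lowest chi-square per degree of freedom 8.315).

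The 38 members, the wider lists, the marker lists and the tests were chosen with earlier results of these data known, and the motifs after the members' values had been seen. Values per library are given for members called in at least 1 comparison and for the highest and lowest of each role in RPKM. Ccne1, Ccnb1 and Mki67 were added after their values were seen. Of each wider list, the 2 called genes with the smallest p are named.

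The number that starts the description of each library was treated as a preparation, but the labels do not state its meaning. Across genes, the residuals of 10 of 10 pairs of libraries that share this number had a correlation above 0.1 (median r 0.282). Of 38 pairs with different numbers, 6 did (median r -0.072). Preparation was therefore taken to pair the libraries, but the main fit does not use it. Htt-25Q 4 shares its number with no other library and has no part in the differences within preparations. Its r was nevertheless 0.414 with Htt-72Q 4 and 0.425 with control vector 4, above the median of pairs that share a number. Whether these libraries share a preparation was not tested. Alternatives were DESeq2 1.42.0, limma voom (limma 3.58.1), upper-quartile, RLE and library-total scaling, no filter and a minimum count of 30, only the 2 groups compared, blocks by preparation or title number, the Gapdh class as a term, and each library left out in turn.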

Additional observations from a re-analysis of the deposited data

Results flagged for a closer look

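Of 114 groups of 4 libraries (38 genes in 3 groups), 7 held a library whose gap to the nearest of the others was unusually wide for the group's range. Chance flags about 1 in 20 groups. In Htt-72Q, library 3 was low for Ccne1 (7.01 CPM, the others 11.9 to 12.3 CPM) and for Cdc6 (0.557 CPM from 7 counts, the others 2.37 to 2.43 CPM).

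In Htt-25Q, library 1 was high for Mki67 (31.9 CPM, the others 24.2 to 25.3 CPM).

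In control vector, library 1 was high for Mki67 (43.7 CPM, the others 18.2 to 20.8 CPM) and for Foxm1 (7.44 CPM, the others 2.97 to 3.70 CPM). Control vector 4 was low for E2f2 (1.28 CPM, the others 1.51 to 1.55 CPM), and control vector 3 was low for Plk1 (3.13 CPM, the others 4.01 to 4.18 CPM).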

How the results depend on the processing

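Over 23 alternatives per comparison no called gene changed sign. Ccne2 and E2f1 were called in 23 of 23 in both Htt-72Q comparisons, and Tpx2 in 23 of 23 over control vector and 20 of 23 over Htt-25Q. Over control vector, Mcm6 was called in 19, Cdk1, Ube2c and Cdc20 in 17, Mcm7 in 12 and Top2a in 11. The count of genes called higher over control vector, 8, became 4 with no filter on low counts (27365 genes tested), 3 with only the 2 groups compared and 2 to 8 with each library left out in turn. Of all genes, 1189 of 27365 were called higher with no filter and 897 of 13973 with only the 2 groups. Over Htt-25Q the count of 3 became 7 with library totals, 6 with DESeq2 and 1 to 5 with each library left out: 1 without Htt-25Q 4 and 5 without control vector 1. The cause of these moves was not tested. Preparation as a block changed no other call than those of Ccnb1 and Ccne1. The number in the title did not pair all the libraries (10 of 12 pairs above 0.1, lowest r -0.4922). The 10 include the pairs of Htt-25Q 4 with Htt-72Q 4 (r 0.414) and with control vector 4 (r 0.425), whose preparation numbers differ from its own. A replicate block by the title number gave 8 genes higher over control vector and 5 over Htt-25Q. Among all 14707 genes, that block called 1574 higher over control vector and 1493 over Htt-25Q. The median of the G1/S genes over Htt-25Q, 0.51, was 0.22 with the preparation replicate block and -0.016 to 0.59 with each library left out (-0.016 without Htt-72Q 3). The replication median over Htt-25Q, 0.21, was 0.028 with the Gapdh class as a term, and the G1/S median of Htt-25Q over control vector, -0.01, was 0.11 with the preparation block. Library totals moved the median of all genes over control vector to 0.11. Of the 29 genes not called over control vector, 4 were called under some alternative and 10 changed sign under some alternative. Depth limits the genes with the fewest counts most: the lowest count of a member in a library was 7, for Cdc6.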
